A study of Mus musculus with 9 samples.

Results

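Bnip3, Sqstm1, Gabarapl1 and Bcl2l11 are genes of mitophagy, autophagy and mitochondrial cell death. They were followed through oxygen-glucose deprivation in mouse brain microvascular endothelial cells (MBMECs), the cells that line the small vessels of the brain. The genes were chosen by their symbols, and the 4 are among 675 genes of the deposited expression table.

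RNA-seq was carried out on 9 libraries, 1 for each of 9 groups, from wild-type cells that the labels record as a cell line. In OGD, cells were deprived of oxygen, glucose and fetal bovine serum for 1, 3 or 6 h. In OGD+Oba they were deprived in the same way and given obacunone, a limonoid from citrus plants, at 3 µM for 1, 3 or 6 h. Normoxia libraries were made at the same 3 times, and OGD and OGD+Oba libraries are together called deprived. No group has a replicate, and no label says which libraries came from separate cultures. Values are FPKM, fragments per length of transcript, scaled to the mapped fragments of the library. They are relative to the rest of each library, so fewer cells of a kind and less RNA per cell cannot be told apart, and the depth is unknown.

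In the authors' deposited table each of the 675 genes has a 6 h log2 ratio, OGD over normoxia, of at least 1 in size, with 350 up and 325 down. The table is therefore a selection on that comparison, and differences from normoxia at 6 h are given as descriptions with no test. Of 15 endothelial marker genes only Flt1 is listed, at 0.05 to 0.68 FPKM. Of 8 epithelial markers only Cldn4 is listed, at 60.9 to 308 FPKM, and of 6 neuronal markers only Tubb3, at 3.32 to 10.7 FPKM. At 3 h deprived minus normoxia was 1.43 for Cldn4 and -1.39 for Tubb3 on the log2(FPKM + 1) scale. The other markers were not analysed here, so the cell type could not be checked, and the part of other cells in the results below was not tested.

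Autophagy wraps cell contents in a double membrane, the autophagosome, and delivers them to the lysosome. Mitophagy is the form that removes mitochondria, and it uses receptors that tie the organelle to small ubiquitin-like proteins of the ATG8 family on the growing membrane. Low oxygen and lack of nutrients are standard inducers of autophagy, and proteins of the BCL2 family decide at the mitochondrial surface whether a stressed cell enters apoptosis.

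Deprivation was tested at each time as the mean of the OGD and OGD+Oba libraries against the normoxia library, in 1 limma model on log2(FPKM + 1) over the 580 genes that averaged 1 FPKM or more, a floor that the 4 genes passed. The error of that model comes from the spread within the OGD and OGD+Oba pairs, and the single normoxia library is taken to vary as they do. P values are adjusted over the 580 genes (Benjamini-Hochberg), and a gene is called below 0.05.

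Bnip3 encodes a receptor in the outer mitochondrial membrane that binds ATG8 proteins, and it is a textbook target of hypoxia-inducible factor (HIF). It lies on the minus strand at chr7:138890836-138909506 (GRCm38.p6, gene 12176). At 1 h it had 67.8 FPKM under OGD, 78.2 FPKM under OGD+Oba and 67.4 FPKM in normoxia. At 3 h it had 162 FPKM under OGD, 173 FPKM under OGD+Oba and 53.7 FPKM in normoxia. At 6 h it had 272 FPKM under OGD, 292 FPKM under OGD+Oba and 29.0 FPKM in normoxia. The deprived libraries thus climbed with time while normoxia declined, and at each time both deprived libraries stood above all 3 normoxia libraries. OGD over normoxia was 1.01-fold at 1 h, 3.02-fold at 3 h and 9.37-fold at 6 h.

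At 3 h Bnip3 rose under deprivation, by 1.63 ± 0.09 on the log2 scale (SE; adjusted p = 6.56e-06, limma). At 1 h the difference was 0.11 ± 0.09 (adjusted p = 0.982). The rise at 3 h passed under every alternative with a test, with log2 differences of 1.56 to 1.68. Of the 580 tested genes 38 had a higher difference at 3 h than Bnip3. The 580 include genes listed as down at 6 h, while Bnip3 is listed as up. Its nearest relative in the table is Bnip3l, also a mitophagy receptor of the outer membrane. Bnip3l had 80.6 FPKM under OGD, 82.9 FPKM under OGD+Oba and 55.6 FPKM in normoxia at 3 h, and its rise of 0.55 ± 0.10 was smaller in size than that of Bnip3 (adjusted p = 0.0025). The difference between the 2 genes was not tested.

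The 250 bases before the start of Bnip3 are shown because they hold the short core motifs of HIF sites. The sequence is that of RefSeq on GRCm38.p6, read on the minus strand at chr7:138909507-138909756, and capitals mark matches to ACGTG or GCGTG or CACGTG on either strand.

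Bnip3: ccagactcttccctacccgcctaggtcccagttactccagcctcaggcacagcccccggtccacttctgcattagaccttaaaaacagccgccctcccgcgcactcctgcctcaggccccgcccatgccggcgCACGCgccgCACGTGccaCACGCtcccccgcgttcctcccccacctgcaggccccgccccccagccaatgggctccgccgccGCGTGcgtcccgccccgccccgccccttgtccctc

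The window has CACGTG 108 bases before the start, a palindrome that is read as ACGTG on each strand, and GCGTG at 117, 99 and 35 bases before it. Among 32851 promoter windows of the same length in RefSeq, 16.6% hold ACGTG, 28.2% hold GCGTG and 6.02% hold CACGTG. A match of letters describes the window and is not evidence of binding.

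Sqstm1 encodes the autophagy cargo receptor that binds ubiquitin chains and ATG8 proteins, is itself degraded by autophagy, and is a known target of the oxidative stress factor NRF2. It lies on the minus strand at chr11:50200152-50210820 (gene 18412). At 1 h it had 298 FPKM under OGD, 333 FPKM under OGD+Oba and 331 FPKM in normoxia. At 3 h it had 471 FPKM under OGD, 501 FPKM under OGD+Oba and 405 FPKM in normoxia. At 6 h it had 558 FPKM under OGD, 623 FPKM under OGD+Oba and 284 FPKM in normoxia. Both deprived libraries at 3 h and at 6 h lay above all 3 normoxia libraries, which were themselves highest at 3 h.

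Sqstm1 rose at 3 h by 0.26 ± 0.07 on the log2 scale (SE; adjusted p = 0.0148, limma), which is 1.20-fold. At 1 h the difference was -0.07 ± 0.07 (adjusted p = 0.982). The call at 3 h was lost under median-ratio scaling (adjusted p = 0.208), under the authors' scaling (0.0600) and without limma's trend (0.143). It was also lost for OGD alone in a fit with obacunone coded 0 and 1, at 0.19 on the log2 scale (adjusted p = 0.0575). Median-ratio factors were taken from the listed genes, a selection on the 6 h comparison.

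Gabarapl1 encodes an ATG8 family protein of the autophagosome membrane, the kind of protein that BNIP3 and SQSTM1 bind, and in mouse muscle it is a target of FOXO3. It lies on the plus strand at chr6:129533192-129542331 (gene 57436). At 1 h it had 90.4 FPKM under OGD, 96.7 FPKM under OGD+Oba and 100.4 FPKM in normoxia. At 3 h it had 111 FPKM under OGD, 107 FPKM under OGD+Oba and 78.6 FPKM in normoxia. At 6 h it had 119.9 FPKM under OGD, 121 FPKM under OGD+Oba and 58.8 FPKM in normoxia. The deprived libraries spanned a narrow range over the 3 times, while normoxia declined at each step.

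Gabarapl1 rose at 3 h by 0.47 ± 0.10 on the log2 scale (SE; adjusted p = 0.0047, limma), which is 1.39-fold. The difference at 1 h was -0.10 ± 0.10 (adjusted p = 0.982). Under median-ratio scaling the adjusted p at 3 h was 0.0552.

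Bcl2l11 encodes BIM, a BH3-only protein that neutralises the survival members of the BCL2 family and sets off mitochondrial apoptosis, and it is a known FOXO target. It lies on the plus strand at chr2:128126038-128162547 (gene 12125). At 1 h it had 3.44 FPKM under OGD, 2.14 FPKM under OGD+Oba and 4.39 FPKM in normoxia. At 3 h it had 7.25 FPKM under OGD, 9.65 FPKM under OGD+Oba and 5.38 FPKM in normoxia. At 6 h it had 13.0 FPKM under OGD, 11.4 FPKM under OGD+Oba and 2.72 FPKM in normoxia. Both deprived libraries were below normoxia at 1 h and above all 3 normoxia libraries at 3 h and 6 h.

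The difference of Bcl2l11 at 3 h was 0.56 ± 0.27 on the log2 scale, with a 95% interval of -0.06 to 1.17, and did not pass the test (adjusted p = 0.101, limma). Its OGD+Oba and OGD libraries differed by 0.37 on that scale at 3 h, against 0.09 for Bnip3 and for Sqstm1. At 1 h the difference was -0.53 ± 0.27 (adjusted p = 0.607). Without the 1 h libraries the difference at 3 h passed, at an adjusted p of 0.0262. Its value does not depend on those libraries, and the error then came from the 3 h and 6 h pairs only. In that fit 66.9% of all tested genes were called in either direction, against 61.4% with all libraries.

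The windows before the starts of Gabarapl1 and Bcl2l11 are shown because they hold TAAACA, a forkhead core that FOXO factors can bind. They are RefSeq sequences of GRCm38.p6 on the plus strand, at chr6:129532942-129533191 for Gabarapl1 and chr2:128125788-128126037 for Bcl2l11, and capitals mark TAAACA, and CACGC, which is GCGTG on the other strand.

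Gabarapl1: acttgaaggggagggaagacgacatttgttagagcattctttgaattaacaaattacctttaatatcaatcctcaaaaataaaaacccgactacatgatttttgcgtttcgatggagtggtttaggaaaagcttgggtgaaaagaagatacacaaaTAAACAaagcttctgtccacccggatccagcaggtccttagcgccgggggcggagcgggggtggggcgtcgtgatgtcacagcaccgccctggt

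Bcl2l11: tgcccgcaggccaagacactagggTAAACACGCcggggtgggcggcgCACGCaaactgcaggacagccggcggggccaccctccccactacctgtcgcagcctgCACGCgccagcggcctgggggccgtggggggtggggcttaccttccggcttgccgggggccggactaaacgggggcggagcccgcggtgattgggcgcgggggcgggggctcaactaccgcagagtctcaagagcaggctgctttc

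TAAACA lies 94 bases before the start of Gabarapl1 and 226 bases before that of Bcl2l11, and 12.03% of the 32851 windows hold it on either strand. In Bcl2l11 it overlaps the first of 3 GCGTG matches, at 222, 203 and 146 bases before the start. The window of Sqstm1 and that of a second Bcl2l11 start held none of the 5 motifs searched, which included the NRF2 motif TGACNNNGC, found in 10.2% of windows. The GC content of the windows shown was 72.4% for Bnip3, 72.0% for Bcl2l11 and 46.8% for Gabarapl1.

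**Figure D1:**
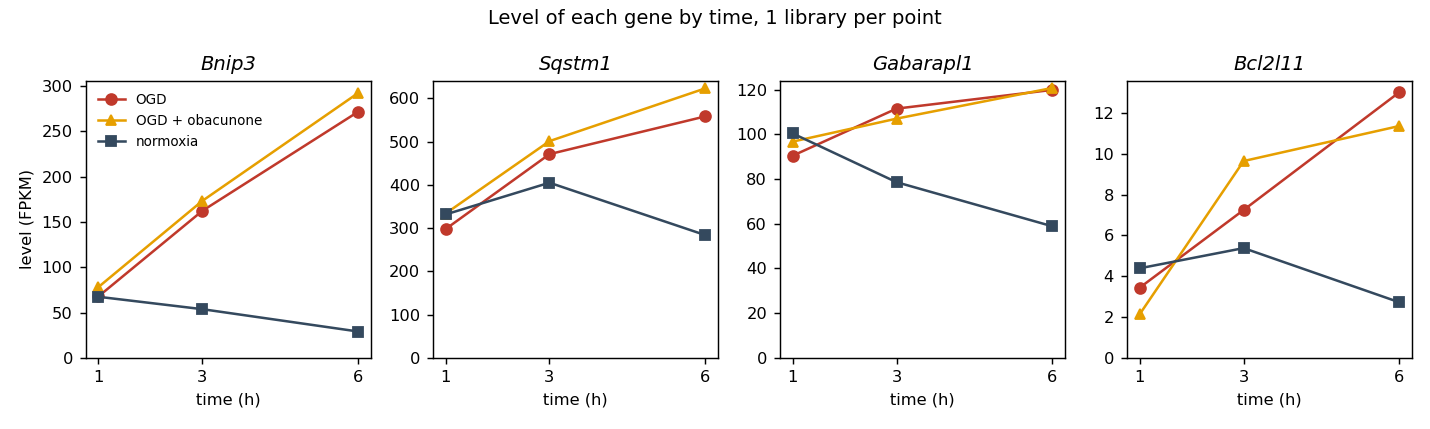
FPKM of Bnip3, Sqstm1, Gabarapl1 and Bcl2l11 (1 panel each, own linear scale from 0) against time in hours, with 1 point per library for OGD, OGD + obacunone and normoxia. At 1 h the arms lie close together except for Bcl2l11, at 2.14 FPKM under OGD + obacunone and 4.39 FPKM in normoxia. The deprived libraries lie above normoxia at 6 h, where Bnip3 had 272 and 292 FPKM in deprived libraries and 29.0 FPKM in normoxia.

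At 1 h none of the 4 genes was called in either direction, against 4.14% of all tested genes, which were all lower under deprivation. At 3 h, 3 of the 4 were called higher and none lower, against 32.8% of all tested genes called higher. Their median log2 difference was 0.51, against 0.05 for all tested genes. The 4 are among the 350 genes up at 6 h in the authors' table, while all tested genes include ones listed as down. Shares and medians of all tested genes, here and below, are therefore not those of genes listed as up, which were not computed. At 6 h the 4 genes had log2 differences of 3.24 for Bnip3, 1.82 for Bcl2l11, 1.05 for Sqstm1 and 1.02 for Gabarapl1, a description of genes listed for that difference. Both deprived libraries lay above all normoxia libraries for 1 of the 4 genes, Bnip3, at 1 h, for 4 at 3 h and for 4 at 6 h, as they did for 10.7%, 37.2% and 48.4% of all tested genes at these times. OGD was at least 2-fold higher than normoxia, as a log2(FPKM + 1) difference of 1 or more, for 0 of the 4 at 1 h, for 1, Bnip3, at 3 h and for 3 at 6 h, where Sqstm1 was just under at 0.97. Among all tested genes the shares were 0.69%, 14.8% and 38.6%.

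The order of the 4 levels changed with deprivation in its middle places only. FPKM is per length, so levels of different genes can be set side by side, but the transcript lengths used are not given. Reads shared with other genes, most of all for Bnip3, could also alter the order. Sqstm1 was highest and Bcl2l11 lowest in all 9 libraries, with means of 423 and 6.60 FPKM. Gabarapl1 was above Bnip3 in all 3 normoxia libraries and in both deprived libraries at 1 h, by 1.24-fold to 2.03-fold. Bnip3 was above Gabarapl1 in the deprived libraries at 3 h and 6 h, by 1.46-fold to 2.42-fold. With 1 library a group, no spread can be put on the order.

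The test of the change in response is the deprivation effect at 3 h minus that at 1 h. It was higher at 3 h for Bnip3, by 1.51 ± 0.13 (adjusted p = 8.38e-05, limma), for Gabarapl1, by 0.57 ± 0.14 (adjusted p = 0.0137), and for Sqstm1, by 0.34 ± 0.10 (adjusted p = 0.0334). It was 1.08 ± 0.38 for Bcl2l11, which did not pass (adjusted p = 0.0561) but passed under the authors' scaling (0.0426) and without the 6 h libraries (0.0303). For its OGD library alone the value was 0.65. These 3 of 4 calls stand beside 26.4% of all tested genes called higher. Bnip3 passed under every alternative with a test, while Gabarapl1 lost its call under median-ratio scaling (adjusted p = 0.164) and without the trend (0.0744). Sqstm1 lost its call under both of these (0.468 and 0.207), under the authors' scaling (0.149), with no floor (0.0520) and without the 6 h libraries (0.0515).

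**Figure D2:**
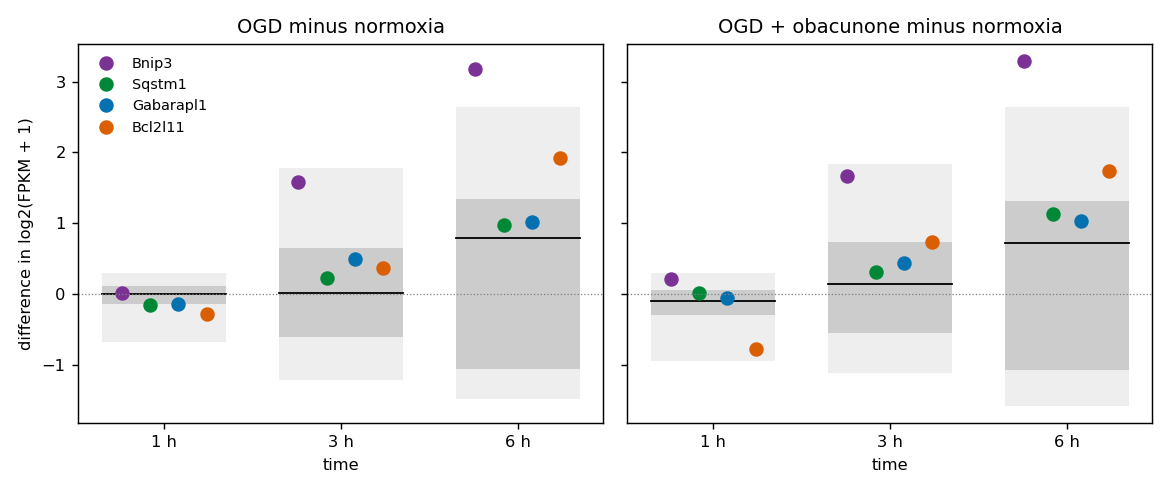
Differences from normoxia on the log2(FPKM + 1) scale at 1, 3 and 6 h for OGD and OGD + obacunone, with 1 point per gene and library pair. Behind them, for all 580 tested genes, the black line is the median, dark grey runs between the 25th and 75th percentiles and light grey between the 5th and 95th; Bnip3 lies above the dark band at 3 h and above both bands at 6 h, while Sqstm1 and Gabarapl1 lie within the dark band at these times.

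Within the deprived libraries the 4 genes rose between 1 h and 3 h. The rise was 1.33 ± 0.22 for Bcl2l11 (adjusted p = 0.00197, limma), 1.19 ± 0.08 for Bnip3 (1.10e-05), 0.62 ± 0.06 for Sqstm1 (9.08e-05) and 0.22 ± 0.08 for Gabarapl1 (0.0497). Among all tested genes 29.5% were called higher at 3 h. Gabarapl1's call was at the threshold and was lost under 6 alternatives, with adjusted p of 0.0518 to 0.300. From 3 h to 6 h Bnip3 rose by 0.75 ± 0.08 (adjusted p = 0.00128) and Sqstm1 by 0.28 ± 0.06 (0.0116), against 25.7% of all tested genes. Sqstm1 lost this call under median-ratio scaling, at 0.096 (adjusted p = 0.609), under the authors' scaling (0.0697) and without the trend (0.109). Bcl2l11, at 0.49 ± 0.22 (0.116), and Gabarapl1, at 0.14 ± 0.08 (0.201), did not pass. Bcl2l11 did without the 1 h libraries (0.0248), where 43.1% of all tested genes were called in either direction, against 33.4% with them. The step from 3 h to 6 h includes the OGD library on which the table was selected. All 4 genes were higher at each later time under OGD and under OGD+Oba, as were 36.6% of tested genes.

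The normoxia libraries also moved, and they contributed differently to the 4 genes. Between 1 h and 6 h normoxia changed by -1.19 for Bnip3, -0.76 for Gabarapl1, -0.53 for Bcl2l11 and -0.22 for Sqstm1 on the log2 scale, against a median of -0.06 over all tested genes. The 6 h normoxia library is one on which the table was selected. Of the widening of OGD minus normoxia between 1 h and 6 h, the decline of normoxia made up 65.4% for Gabarapl1, 37.4% for Bnip3, 24.4% for Bcl2l11 and 19.8% for Sqstm1. Between 1 h and 3 h it made up 53.9% for Gabarapl1 and 20.5% for Bnip3. Over that step Sqstm1 and Bcl2l11 were higher in normoxia too, by 0.29 and 0.24. Between 3 h and 6 h it made up more than the OGD library did for each of the 4 genes, at 79.8% for Gabarapl1, 67.6% for Sqstm1, 53.9% for Bnip3 and 50.4% for Bcl2l11. No value here shows how normoxia libraries vary between cultures.

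**Figure D3:**
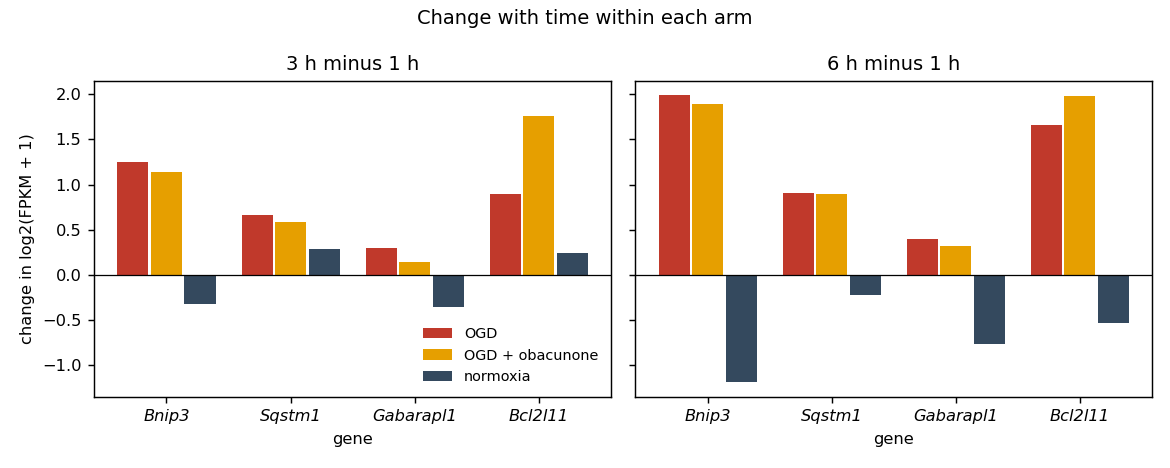
Change in log2(FPKM + 1) within each arm, 3 h minus 1 h on the left and 6 h minus 1 h on the right, with 1 bar per arm for each gene (single libraries, no error bar). At 6 h the normoxia bar is below 0 for all 4 genes, and for Gabarapl1 it is longer than the bar of either deprived arm.

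Over the 3 times taken as replicates, in an additive model of time and arm, OGD minus normoxia was 1.59 ± 0.52 for Bnip3 (SE, adjusted p = 0.0902, limma), 0.67 ± 0.39 for Bcl2l11 (0.233), 0.45 ± 0.44 for Gabarapl1 (0.364) and 0.35 ± 0.44 for Sqstm1 (0.475). None of the 4 was called, against 3.1% of all tested genes called higher. This model counts the change of the response with time as error, and it includes the 6 h libraries. Without the 1 h libraries it called all 4 higher, against 39.5% of all tested genes called higher and 75.3% in either direction, and the 6 h libraries that selected the table then weigh more. The log2 differences were then 2.38 for Bnip3, 1.14 for Bcl2l11, 0.76 for Gabarapl1 and 0.60 for Sqstm1.

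Obacunone left no called difference in the 4 genes, against 1.03% of all tested genes called in either direction. OGD+Oba minus OGD over the 3 times was 0.13 for Bnip3 (95% interval -0.94 to 1.21), 0.14 for Sqstm1 (-0.77 to 1.05), 0.02 for Gabarapl1 (-0.90 to 0.93) and -0.10 for Bcl2l11 (-0.91 to 0.70). These intervals are wide in a model that counts the change of the deprivation response with time as error. In the per-time model, whose error comes from the OGD+Oba and OGD pairs, the same differences had 95% intervals of -0.01 to 0.28 for Bnip3, 0.03 to 0.25 for Sqstm1, -0.13 to 0.17 for Gabarapl1 and -0.52 to 0.31 for Bcl2l11. None of the 4 was called there either, and Sqstm1, whose interval lies above 0 before adjustment, had an adjusted p of 0.819. Among the 580 genes 6 were called and 10 had an unadjusted p under 0.05 in the additive model, against 1 and 22 in the per-time model.

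Time by time, Bnip3 was 0.20, 0.09 and 0.11 higher under OGD+Oba than under OGD at 1, 3 and 6 h on the log2 scale, and Sqstm1 was 0.16, 0.09 and 0.16 higher. These 2 of the 4 genes were above OGD at each time, as were 7.93% of tested genes. Over all tested genes the median differences were -0.08, 0.07 and -0.02, so at 3 h these 2 genes were close to the median. For Gabarapl1 the differences were 0.10, -0.06 and 0.01. Bcl2l11 had the widest differences of the 4, at -0.50, 0.37 and -0.18, and they changed sign with time.

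Transcript length moved with the obacunone differences across genes. Over 559 tested genes with a GENCODE protein-coding transcript, Spearman's rho between OGD+Oba minus OGD and the longest transcript was -0.41 at 1 h, 0.33 at 3 h and -0.25 at 6 h. The genes share the libraries and are not independent, so no p is given. For OGD minus normoxia rho was 0.16, -0.04 and 0.03. Bcl2l11, at 5036 bases, is in the quintile of genes with the longest transcripts, whose median differences were -0.20, 0.18 and -0.07, the same signs as its own. Bnip3 (1756 bases) and Gabarapl1 (1820 bases) are in the shortest quintile, with medians of 0.08, -0.03 and 0.03, and Sqstm1 (2673 bases) is in the next, with -0.01, 0.04 and 0.02. The part of length in the obacunone values was not tested.

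The wider pathway was described by 11 lists of 166 genes, of which 18 are in the table and 17 passed the floor. Of these 17, 10 were called higher at 3 h and 2 lower, with a median log2 difference of 0.55, against 32.8% higher and 28.6% lower among all tested genes. Of the 138 autophagy, mitophagy, lysosome and death genes among them, 10 are in the table, and 4 of these were called higher and 2 lower at 3 h. None of the 15 autophagy cargo receptors beside Sqstm1, the 15 genes of ATG8 proteins and their conjugation beside Gabarapl1, the 7 BH3-only genes beside Bcl2l11 or the 8 BCL2 survival genes is listed, and they were not analysed here.

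Upstream of the autophagosome, Ddit4, an inhibitor of mTORC1 signalling, rose at 3 h by 2.48 ± 0.10, and Depp1, a FOXO target linked to autophagy, rose by 3.04 ± 0.18. Atg14, a subunit of the lipid kinase complex that nucleates the autophagosome, was at 0.35 ± 0.20 and did not pass (adjusted p = 0.171, limma). In the lysosome list Flcn, which acts in nutrient sensing at the lysosome, rose by 1.01 ± 0.13 and Gusb, a lysosomal hydrolase, fell by 0.43. The partner gene of Flcn, Fnip1, was at 0.35 ± 0.22, which did not pass. Of the death genes, the receptor gene Tnfrsf12a fell by 1.14, and Tnfrsf21 (-0.49 ± 0.22) and the BCL2 family gene Bcl2l14 (-0.39 ± 0.23) did not pass.

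The FOXO list of 16 genes had 6 tested, of which 5 were called higher at 3 h, against 32.8% of all tested genes. The median of the 6 was 1.496, against 0.05 for all tested genes, and all 6 are listed as up at 6 h. The gene not called was Bcl6, a transcriptional repressor, at 0.32 ± 0.22 (adjusted p = 0.243, limma). Foxo3, a FOXO factor itself, is among the 5 called, at 1.37 ± 0.18. Cited2, a transcriptional cofactor also induced by hypoxia, rose by 3.01 ± 0.10, the cyclin gene Ccng2 by 1.71 ± 0.11, the cell cycle inhibitor gene Cdkn1b by 1.62 ± 0.12 and the catalase gene Cat by 0.33 ± 0.11. Of the 12 NRF2 targets only Hmox1, heme oxygenase, is listed, and it rose by 1.34 ± 0.10. Hmox1 is also a known target of HIF.

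**Figure D4:**
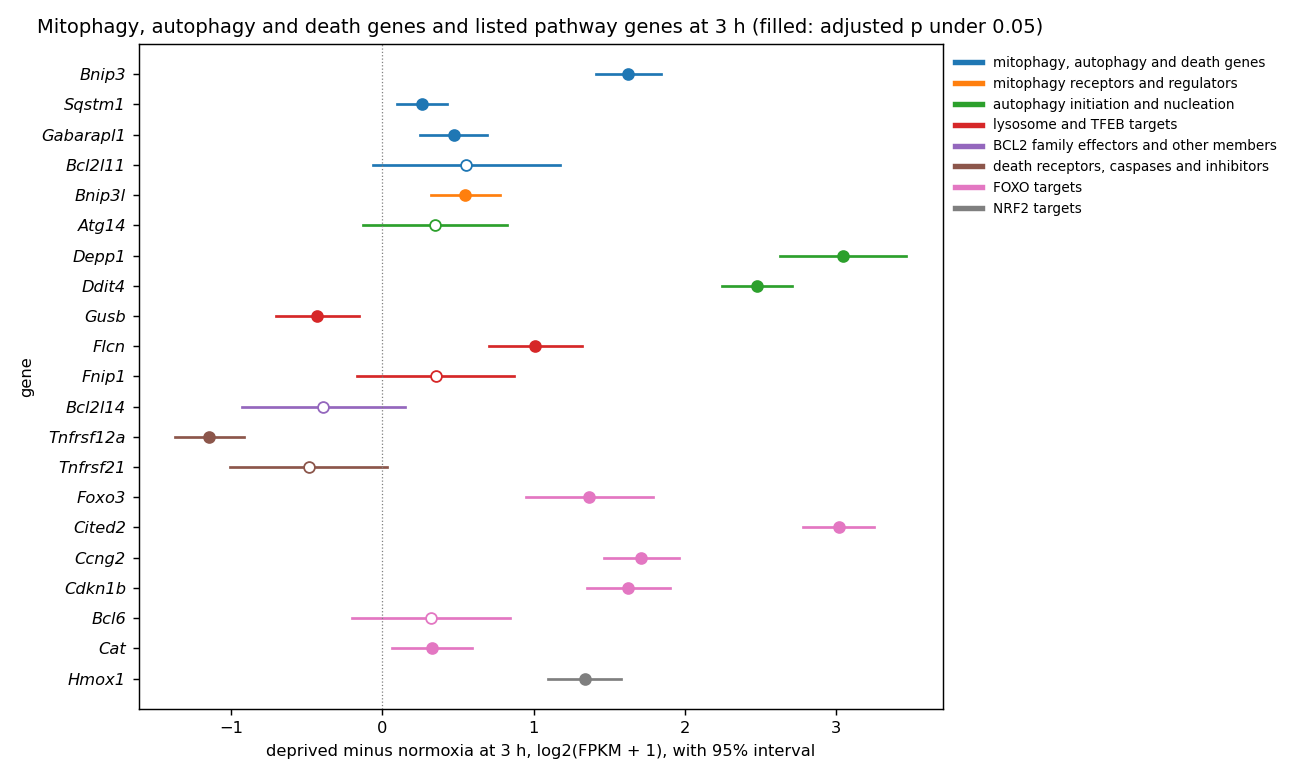
Deprived minus normoxia at 3 h on the log2(FPKM + 1) scale for the 4 genes and the 17 tested list genes, coloured by list, with 95% intervals from limma; filled points have an adjusted p under 0.05. Bnip3, at 1.63, lies among the FOXO list genes Ccng2 and Cdkn1b, while Sqstm1 and Gabarapl1, at 0.26 and 0.47, are nearer to 0 than Depp1, Cited2 and Ddit4.

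Genes most like each of the 4 over the 9 libraries were ranked by Pearson's r of log2(FPKM + 1). They share libraries and the selection of the table, and r is a description. For Bnip3 they were Hmox1 (0.995), Egln1 (0.995) and Mxi1 (0.992), and 152 of 579 genes had an r of at least 0.9. For Sqstm1 they were Cdkn1a (0.982), Atg14 (0.979) and Rnf19a (0.976), with 71 such genes. For Gabarapl1 they were Pfkl (0.988), Ldlrad3 (0.981) and Depp1 (0.981), with 70. For Bcl2l11 they included Gas2l3 (0.983) and Atg14 (0.978), with 66. Among the 4 genes r ran from 0.70, for Gabarapl1 with Bcl2l11, to 0.94, for Sqstm1 with Bcl2l11.

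Reads of other genes could enter these values, since the sources used here do not state whether counting used the strand. Of the 31-base words in Bnip3 transcripts of GENCODE M21, 20.3% occur in other genes on the same strand and 55.2% on the opposite strand, so its levels are the least certain in this respect. For Sqstm1 16.4% and for Gabarapl1 25.2% occur on the opposite strand, mostly in Mrnip and in an antisense transcript, and none on the same strand. For Bcl2l11 the shares were 0.408% on the same strand and 0.309% on the opposite one. Without strand, reads of a gene and of its antisense partner cannot be told apart.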

How the data were processed

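RNA was sequenced on a DNBSEQ instrument per the labels' protocols, and the submitters' processing notes name HISAT2 2.0.4 and GRCm38. The authors deposited 1 table of 675 genes with FPKM per library, to 2 decimals, and 6 columns of their log2 ratio between groups. The software and transcript lengths behind the FPKM values are not given in the sources used here, and no counting interval was computed. The 580 genes that averaged 1 FPKM or more were fitted as log2(FPKM + 1) with limma 3.58.1 (R 4.3.3, trend). This scale understates changes of low genes such as Bcl2l11. The per-time model has a mean for normoxia and for the deprived pair at each time and a common obacunone effect, coded so that deprived is the mean of OGD and OGD+Oba. Its residual degrees of freedom are 2 and its prior ones 5.48. The model over times is additive in time and arm, with 4 residual and 21.27 prior degrees of freedom. P values measure the spread of single libraries, which may be technical. The script was tested on simulated data. The genes named are the 4 members and up to 4 tested genes per list by mean FPKM, or all 6 for the FOXO list. The listed cell type markers and the 3 genes most correlated with each member are also named, with predicted genes passed over. A result that this rule takes is not reported here. The members, lists and tests were chosen with earlier results of these data known. Alternatives were other floors and pseudocounts, median-ratio scaling, the authors' scaling (each library shifted to match their log2 ratios), other limma options, other models and leaving out each time. Median-ratio scaling takes most genes as unchanged, which does not hold at 6 h in this selected table. Its factors, from 647 genes, were 1.15 for OGD and 0.88 for normoxia at 6 h. The fit with obacunone coded 0 and 1 was chosen after seeing the data.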

Additional observations from a re-analysis of the deposited data

Results flagged for a closer look

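The deprivation effect differed between 3 h and 1 h for 3 of the 4 genes, by the contrast of the 2 effects in limma with Benjamini-Hochberg adjustment over 580 genes. Of these 580 genes 26.4% were called higher. The effect at 3 h minus that at 1 h was 1.51 for Bnip3, 0.57 for Gabarapl1 and 0.34 for Sqstm1 on the log2 scale, and each difference was positive for both deprived libraries. For Bcl2l11 the same contrast was 1.08 and did not pass. It was positive for both deprived libraries too, at 0.65 for OGD and 1.52 for OGD+Oba.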

How the results depend on the processing

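The 4 genes gave 340 values under alternatives. Of these, 295 kept their direction and their side of the threshold or, if untested, stayed within their error. Another 21 no longer passed, 13 passed that had not, 6 untested values moved by more than their error and 5 changed sign. The 340 include the differences from normoxia at 6 h, for which the genes were listed, so the values kept there support nothing. The number of the 4 genes called at 3 h, 3, became 1 under median-ratio scaling and 1 for the OGD library alone at a size of 2-fold. Under median-ratio scaling 61.9% of all tested genes were called at 3 h in either direction, against 61.4% before. For the effect at 3 h minus that at 1 h the number was also 3. It became 1 under median-ratio scaling, 1 without the trend and 1 for OGD alone. Shares of all tested genes were 37.1% before, 39.3% under that scaling and 32.4% without the trend. For deprived 3 h against 1 h, 4 became 1 for OGD alone. All numbers for OGD alone count genes at least 2-fold apart without a test, so they are not counts of calls. In this step its log2 values were 1.25 for Bnip3, 0.89 for Bcl2l11, 0.66 for Sqstm1 and 0.30 for Gabarapl1. For deprived 6 h against 3 h, 2 became 1 under median-ratio scaling, 1 under the authors' scaling, 1 without the trend and 0 for OGD alone. For OGD over the 3 times, 0 became 1 with limma's robust option, 4 without the 1 h libraries and 4 in the per-time model, where 7.59%, 75.3% and 85.9% of all tested genes were called in either direction, against 4.14% before. Median-ratio scaling shifted the median of all genes by 0.10 at 1 h, -0.25 at 6 h and -0.15 for deprived 6 h against 3 h. It turned Sqstm1 (0.046) and Gabarapl1 (0.017) at 1 h, and Gabarapl1 for deprived 6 h against 3 h (-0.044), to the other sign. Without the 1 h libraries OGD+Oba minus OGD became -0.024 for Gabarapl1 and 0.093 for Bcl2l11. The cause of these changes was not tested. At 1.5-fold instead of 2-fold, 46 genes instead of 22 differed between OGD and normoxia at 1 h, and 312 instead of 135 at 3 h. No paired analysis was possible because each group has 1 library, whose number 1 is only a name; the time that the arms share is already a term of the additive model. With the depth unknown, low levels such as those of Bcl2l11 carry a counting error that cannot be given.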

Other observations

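The authors' deposited log2 ratios ran parallel to the FPKM values for 3 of the genes. In OGD over normoxia Bcl2l11 lay further off at 1 h and 6 h. In the authors' deposited table OGD over normoxia at 1, 3 and 6 h was -0.02, 1.66 and 3.29 for Bnip3, -0.18, 0.29 and 1.04 for Sqstm1, -0.18, 0.57 and 1.09 for Gabarapl1, and -0.20, 0.46 and 2.17 for Bcl2l11. The authors' ratio minus the log2 ratio of FPKM had a median of -0.03, 0.06 and 0.06 at the 3 times. These medians are over genes above 5 FPKM in both libraries, and Bcl2l11 was below that level at 1 h and in normoxia at 6 h. Bnip3, Sqstm1 and Gabarapl1 lay within 0.01 of these medians, while Bcl2l11 was at 0.15, 0.03 and -0.09. At 3 h Bcl2l11 was between the 5th and 95th percentiles of those genes, 0.01 and 0.08. No spread was computed for lower genes. For OGD+Oba over OGD the medians were 0.14, -0.01 and -0.00, and Bcl2l11 was at 0.20, -0.04 and 0.05. The scaling and the transcript lengths behind these ratios are not given in the sources used here.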
